A study of Homo sapiens with 8 samples.

Results

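The 32 genes described here encode the proteins that bring glucose into the cell, break it down to pyruvate, turn pyruvate into lactate and export it, or decide whether pyruvate enters the mitochondrion, together with the hypoxia factor HIF1A and its common reporter CA9. They were chosen by name, by the symbol given in the gene tables, out of 20531 genes listed. PKM2 is the older symbol of PKM, and its row holds the gene as a whole and not the spliced form of the same name. In at least 1 library, 31 of the 32 genes and 14429 genes in all had a value of 10 or above and were kept. CA9, a carbonic anhydrase, was the exception, with at most 0.94 in any library and 0 in 4 of them.

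Polyadenylated RNA was sequenced from SKBR-3 and BT474m1, both human breast cancer lines with HER2 amplification. SKBR-3 has no estrogen or progesterone receptor and BT474m1 has both, per the study. Each line was given DMSO (the vehicle), 300 nM lapatinib (a drug that blocks the kinases EGFR and HER2), 300 nM JQ1 (which keeps BET bromodomain proteins off acetylated chromatin) or both drugs at those doses, for 48 h per the labels, in RPMI medium with serum. All the groups are thus HER2+ tumor lines in culture, and neither the glucose nor the oxygen of the cultures is given in the labels. Each of the 8 groups held 1 library, so that no difference could be set against a spread between cultures and no test was made. The 95% intervals below cover counting error only. The RNA is of the whole culture, in which fewer cells of a kind and less RNA per cell cannot be told apart.

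Levels are normalised read counts, which the authors scaled to an upper quartile of 1000 in each library. Depth ran from 21420121 to 34112369 reads on genes, and 1 read was worth between 0.471 and 0.766 units. A log2 fold change is a difference of log2(value + 1), and a gene is called raised or lowered where that difference is 1 or more in size, that is 2-fold. ERBB2, the HER2 gene, was between 94678 and 277872 in the 8 libraries, and ESR1 was at most 16.9 in SKBR-3 against 189.9 to 1827 in BT474m1. Of 7 markers of leukocytes, endothelium, fibroblasts and basal epithelium, only COL1A1 exceeded 15 in any library (24.1 to 1253), and PTPRC and PECAM1, which mark leukocytes and endothelium, stayed at or below 3.38. The library of SKBR-3 with JQ1 stood apart in 1 respect: its 20 highest genes took 14.04% of the summed values, against 6.83% to 11.07% in the other 7 libraries.

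Glucose enters cells through carriers of the SLC2A family and is trapped as a phosphate by hexokinase. Phosphofructokinase makes the committed step, and PFKFB enzymes set the level of its activator, fructose 2,6-bisphosphate. The lower enzymes yield ATP and pyruvate. Lactate dehydrogenase then reduces pyruvate to lactate, which leaves through SLC16A carriers, while pyruvate dehydrogenase would send it into the citric acid cycle. The PDK kinases switch pyruvate dehydrogenase off and the phosphatase PDP1 switches it on. Tumor cells often make lactate even with oxygen present, and MYC and HIF-1, which bind related short DNA sequences, are known for driving many of these genes.

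The promoters of LDHA, GAPDH and PGK1, which were lower with lapatinib in both lines, are shown because they hold such sequences. Those of LDHB, PGAM1 and PKM2, lower with lapatinib in both lines as well, held 0 copies of ACGTG and 0 of GCGTG in the 250 bases before the start. The stretches lie before the transcription start, on the plus strand, taken from RefSeq on GRCh38.p14. Capitals mark matches on either strand to ACGTG or GCGTG, the cores of the sequences bound by HIF-1. The palindrome CACGTG, the E-box bound by MYC and its relatives, holds ACGTG on both strands. LDHA is at chr11:18394363-18394509, GAPDH at chr12:6535168-6535203 and PGK1 at chrX:78104022-78104084.
LDHA: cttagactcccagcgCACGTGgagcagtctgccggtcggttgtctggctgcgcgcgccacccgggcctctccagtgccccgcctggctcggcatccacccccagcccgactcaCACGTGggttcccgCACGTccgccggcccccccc
GAPDH: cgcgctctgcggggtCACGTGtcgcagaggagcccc
PGK1: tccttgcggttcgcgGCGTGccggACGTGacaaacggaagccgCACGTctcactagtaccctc
The LDHA stretch held 2 copies of CACGTG, the GAPDH stretch held 1 and the PGK1 stretch 0. Counting both strands, ACGTG was found 5 times in the LDHA stretch, 2 times in the GAPDH stretch and 2 times in the PGK1 stretch, which also held GCGTG 1 time.

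RefSeq windows of the 250 bases before a start were found for 28 of the 32 genes, 57 windows in all since a gene can have several starts, some of which overlap. Of these, 20 (35.1%) held ACGTG on either strand, against 18.5% of the 35116 windows of all genes. CACGTG was in 7 (12.3%) against 6.34%, and GCGTG in 17 (29.8%) against 32.2%. The forkhead sequences GTAAACA and GTCAACA were in 0 of the 57 windows, against 2.98% and 1.95% of all. These shares count windows, and by gene 17 of the 28 held ACGTG and 7 held CACGTG. The windows were not matched for GC content. These are matches of letters and not measured binding sites.

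With lapatinib, most of the pathway was at a lower level in both lines. The log2 fold change was below 0 for 21 of the 31 genes in SKBR-3 (67.7%, against 44.3% of all genes kept) and for 22 in BT474m1 (71.0%, against 44.7%). It was below 0 in both lines for 19 of the 31, against 28.6% of all genes. The median over the 31 was -0.55 in SKBR-3 and -0.36 in BT474m1, beside 0.05 and 0.07 over all genes. Few of these differences reached 2-fold. In SKBR-3, 6 of the 31 genes were lowered (SLC2A3, PFKP, LDHA, LDHB, SLC16A1 and PDK3), where 9.44% of all genes were, and 3 were raised (SLC2A12, PFKFB3 and PDK4), where 11.1% were. In BT474m1, SLC2A3 and SLC16A1 were lowered (8.06% of all genes) and SLC2A12 and PDK2 were raised (14.0%), so the count of called genes lay near or below the background there.

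JQ1 alone left the pathway without a common direction. In SKBR-3, 3 of the 31 genes were raised (ALDOA, GAPDH and SLC16A3), against 3.75% of all genes, and 4 were lowered (SLC2A3, SLC2A12, PDK2 and PDK4), against 11.8%. In BT474m1, ENO2 and SLC16A1 were raised (4.81% of all genes) and SLC2A3, PDK2 and PDK4 lowered (11.8%). The median over the 31 genes was 0.05 in SKBR-3 and 0.02 in BT474m1.

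The 2 drugs together lowered more of the 31 genes in SKBR-3 than either drug alone did. The same held over all genes in SKBR-3, at 20.8% with both drugs against 9.44% with lapatinib and 11.8% with JQ1. There, 11 of the 31 were lowered (SLC2A3, GPI, PFKM, PFKP, PFKFB4, PGAM1, ENO1, LDHA, LDHB, PDK1 and PDK2), which is 35.5% beside 20.8% of all genes, and PDK4 alone was raised (10.8% of all genes). In BT474m1 PDK4 alone was lowered (15.3%) and ENO2 alone was raised (14.2%). Between the drug combination and lapatinib alone, 0 genes were higher by 2-fold and 3 lower in SKBR-3 (background 3.22% and 16.2%), the latter being SLC2A12, PFKP (-1.09, or -0.93 when scaled by the median of ratios) and PDK2. In BT474m1 SLC2A3 and ENO2 were higher with both drugs than with lapatinib (5.2%), and PDK2, PDK4 and HIF1A were lower (12.5%). Against JQ1 alone, both drugs gave 11 lower genes and 2 higher in SKBR-3 (12.3% and 9.79%), and 3 lower (GAPDH, PKM2 and SLC16A1) and 1 higher (PDK2) in BT474m1 (7.27% and 12.4%). The comparisons with DMSO in 1 line share their DMSO library, and 20 of the 31 genes (64.5%) were called in at least 1 of the 6 of them, as were 54.9% of all genes.

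**Figure D1:**
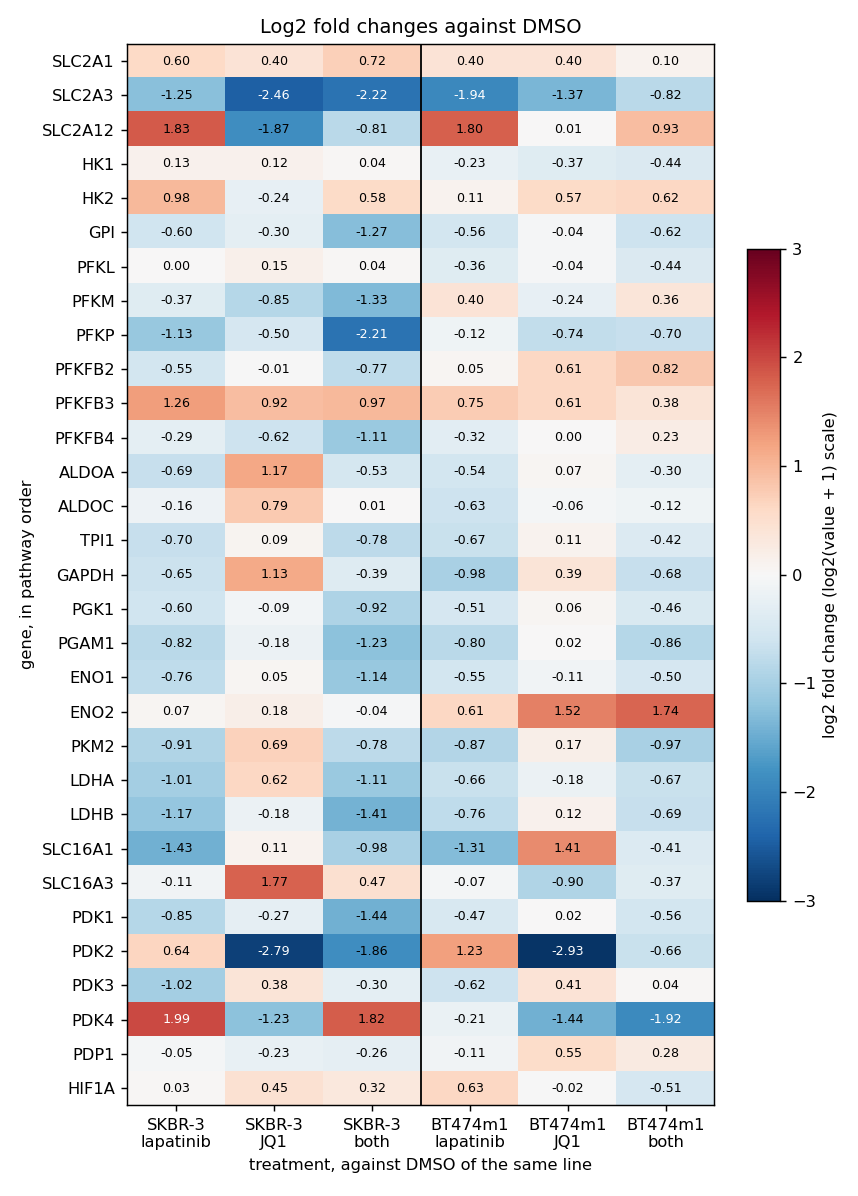
Heat map of log2 fold changes, on the log2(value + 1) scale, of the 31 genes that passed the filter (rows, in pathway order) for each treatment against DMSO (columns, SKBR-3 at left and BT474m1 at right), with 1 library a group. The rows from GPI to LDHB are mostly blue with lapatinib and with both drugs. Changes in both directions are seen in the rows of SLC2A12, SLC16A1, SLC16A3, PDK2 and PDK4, among others.

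Among the 3 glucose carriers of the set, SLC2A1 (GLUT1, the widely expressed carrier) was by far the most abundant, and SLC2A12 (GLUT12) was raised by lapatinib in both lines. SLC2A1 was 9156 (DMSO), 13894 (lapatinib), 12052 (JQ1) and 15129.8 (both drugs) in SKBR-3, and 1364, 1802, 1799 and 1466 in BT474m1. It was above DMSO in all 6 treated libraries, by a log2 fold change of 0.10 to 0.72, and was called in no drug comparison. SLC2A10 (GLUT10), a carrier of the same family outside the set, was chosen after its values were seen. It was 179 (DMSO), 844.6 (lapatinib), 125.6 (JQ1) and 258 (both drugs) in SKBR-3, and 2671, 5025, 3500.0 and 4363 in BT474m1. Per kilobase of the longest transcript, SLC2A10 was above SLC2A1 in all 4 BT474m1 libraries (632 to 1190 against 403 to 532) and far below it in all 4 of SKBR-3. The log2 fold change of SLC2A10 with lapatinib was 2.23 (2.04 to 2.44) in SKBR-3 and 0.91 (0.86 to 0.96) in BT474m1. Of the 7 kept carriers of the family outside the set, lapatinib raised 3 and lowered 1 in SKBR-3 (11.1% and 9.44% of all genes). In BT474m1 it raised 1 and lowered 2 (14.0% and 8.06%). SLC2A6 was the one lowered in both lines, at -1.74 (-2.23 to -1.32) and -1.34 (-2.18 to -0.68).

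SLC2A12 was 281 (DMSO), 1004 (lapatinib), 76.0 (JQ1) and 159.6 (both drugs) in SKBR-3. The BT474m1 values were 49.0, 173.5, 49.3 and 94.5 in the same order. Lapatinib thus had the highest level in each line, with a log2 fold change of 1.83 (95% interval 1.67 to 2.0) in SKBR-3 and 1.80 (1.49 to 2.16) in BT474m1. SLC2A12 was the 1 gene of the 31 raised by lapatinib in both, where 4.39% of all genes were. With JQ1 the lines differed: -1.87 (-2.20 to -1.59) in SKBR-3 and 0.01 (-0.40 to 0.42) in BT474m1. With both drugs SLC2A12 lay 6.26-fold below lapatinib alone in SKBR-3 and 1.83-fold below it in BT474m1.

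SLC2A3 (GLUT3, a high-affinity carrier) was scarce. In SKBR-3 it was 29.3 (DMSO), 11.8 (lapatinib), 4.51 (JQ1) and 5.50 (both drugs), which is 41, 15, 7 and 8 reads, so that DMSO was the highest. On the log2 scale the change was -1.25 (-2.31 to -0.47), -2.46 (-4.10 to -1.53) and -2.22 (-3.72 to -1.30). The call with lapatinib was lost, at -0.86, with a pseudocount of 10. For BT474m1 the values were 2.83, 0, 0.48 and 1.17, or 6, 0, 1 and 2 reads, and these calls rest on too few reads to be read as a change. SLC2A14, a near-identical copy of SLC2A3, was at most 0.97, so that the division of reads between the 2 genes is uncertain.

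The hexokinases, which phosphorylate glucose, were called in no treatment. HK1, the general form, was 11095 to 12172 in the 4 SKBR-3 libraries and 4612 to 6251 in those of BT474m1. HK2, the form abundant in many tumors, was 3402 (DMSO), 6707 (lapatinib), 2887 (JQ1) and 5081 (both drugs) in SKBR-3, and 1594, 1714, 2369.6 and 2453 in BT474m1. In SKBR-3 the 2 libraries with lapatinib were the highest for HK2, with a log2 fold change of 0.98 (0.93 to 1.03) for lapatinib alone, just short of the threshold. In BT474m1 the 2 libraries with JQ1 were the highest.

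Of the phosphofructokinase subunits, PFKP (the platelet form) was lowered in SKBR-3 and PFKL (the liver form) was called nowhere. PFKP was 1929 (DMSO), 884 (lapatinib), 1362 (JQ1) and 415 (both drugs) in SKBR-3, and 1388, 1279, 830.4 and 857 in BT474m1. Both drugs gave the lowest level in SKBR-3, with a log2 fold change of -2.21 (-2.35 to -2.09), beside -1.13 (-1.23 to -1.03) with lapatinib and -0.50 (-0.58 to -0.42) with JQ1. In BT474m1 the value with both drugs was -0.70 (-0.79 to -0.61). PFKL was 3601 to 3986 in SKBR-3 and 2385 to 3233 in BT474m1.

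PFKM, the muscle form, was 1563 (DMSO), 1211 (lapatinib), 869.8 (JQ1) and 623 (both drugs) in SKBR-3. In BT474m1 it was 752, 992, 634 and 966. With both drugs it lay below DMSO in SKBR-3, by -1.33 (-1.44 to -1.22) on the log2 scale, and above DMSO in BT474m1, by 0.36 (0.26 to 0.46). The difference between the lines has no test.

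The PFKFB enzymes make and break fructose 2,6-bisphosphate, and PFKFB3 is the one with the strongest bias to making it. PFKFB3 was 547.6 (DMSO), 1315 (lapatinib), 1041 (JQ1) and 1073 (both drugs) in SKBR-3, and 178, 300.0, 272 and 232 in BT474m1. DMSO was the lowest library in each line, and the log2 fold change was 1.26 (1.14 to 1.39) with lapatinib, 0.92 (0.80 to 1.05) with JQ1 and 0.97 (0.84 to 1.10) with both drugs in SKBR-3. The BT474m1 values were 0.75 (0.56 to 0.95), 0.61 (0.42 to 0.80) and 0.38 (0.17 to 0.59). Only the first of these 6 values passed 2-fold, and scaled by the median of ratios those with JQ1 (1.01) and with both drugs (1.11) in SKBR-3 passed it as well.

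PFKFB4 was 129 (DMSO), 105 (lapatinib), 83.8 (JQ1) and 59.2 (both drugs) in SKBR-3, where the combination gave a log2 fold change of -1.11 (-1.51 to -0.74), or -0.97 when scaled by the median of ratios. For BT474m1 the values were 275, 219.9, 275 and 323, with both drugs the highest. PFKFB2 was 796 to 1353 in SKBR-3, with DMSO the highest, and 381 to 672 in BT474m1, with DMSO the lowest, and was called in no drug comparison.

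Of the 15 genes of the set for enzymes from GPI to lactate dehydrogenase, 13 were below DMSO with lapatinib in each line. With both drugs, 13 were below DMSO in each line too. Of all genes kept, 44.3% (SKBR-3) and 44.7% (BT474m1) were below DMSO with lapatinib, and 53.7% and 49.1% with both drugs. Some scarcer forms outside the set went the other way with lapatinib. PGAM2 was 24.3 with DMSO and 68.1 with lapatinib in SKBR-3, and 21.2 and 238 in BT474m1. GAPDHS and ENO3 were raised in BT474m1. GPI, ALDOA, TPI1, GAPDH, PGK1, PGAM1, ENO1, PKM2, LDHA and LDHB are described together below. These 10 were grouped after their values were seen and because of their shared direction with lapatinib, so that the direction is a description. PFKL, which acts between GPI and ALDOA, was as abundant as some of them and was left out: its log2 fold change with lapatinib was 0.00 (-0.06 to 0.06) in SKBR-3 and -0.36 (-0.42 to -0.31) in BT474m1. HK1, abundant too and ahead of GPI in the pathway, was at 0.13 (0.10 to 0.17) and -0.23 (-0.27 to -0.19). With lapatinib all 10 were below DMSO in both lines, at log2 fold changes of -1.17 to -0.60 in SKBR-3 (median -0.73) and -0.98 to -0.51 in BT474m1 (median -0.67). With both drugs all 10 were again below DMSO, at -1.41 to -0.39 (median -1.02) for SKBR-3 and -0.97 to -0.30 (median -0.65) for BT474m1. With JQ1 the median was 0.07 in each line, with 4 of the 10 below DMSO in SKBR-3 and 3 in BT474m1. Scaling decided the sign of that median in SKBR-3, which was -0.08 when libraries were scaled to equal totals.

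**Figure D2:**
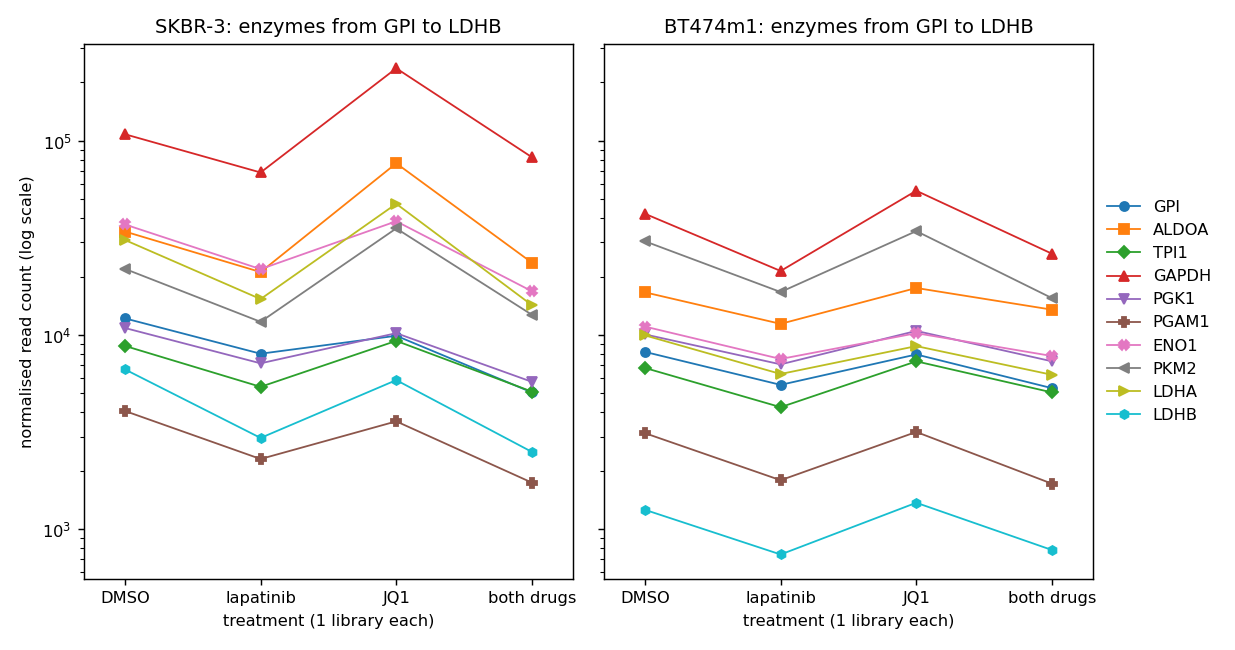
Normalised read counts (log axis) of the 10 abundant enzymes from GPI to LDHB in the 4 libraries of SKBR-3 (left) and of BT474m1 (right), 1 point per library. Every enzyme is lower with lapatinib and with both drugs than with DMSO in both lines, and ALDOA, GAPDH, PKM2 and LDHA are highest with JQ1 in SKBR-3.

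GPI turns glucose 6-phosphate into fructose 6-phosphate. It was 12179 (DMSO), 8009 (lapatinib), 9909 (JQ1) and 5063 (both drugs) in SKBR-3, and 8185, 5537, 7941 and 5325 in BT474m1. It was lowered with both drugs in SKBR-3 by a log2 fold change of -1.27 (-1.31 to -1.23) and lay at -0.62 (-0.66 to -0.58) in BT474m1.

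ALDOA, the main aldolase, splits the 6-carbon sugar. It was 34093 (DMSO), 21079.6 (lapatinib), 76522 (JQ1) and 23560.4 (both drugs) in SKBR-3, and 16581, 11411, 17459.9 and 13501 in BT474m1. JQ1 stood far above the other SKBR-3 libraries, at a log2 fold change of 1.17 (1.15 to 1.18), while in BT474m1 it was 0.07 (0.05 to 0.10). ALDOC, the brain form, was 551 to 1068 in SKBR-3, with JQ1 the highest, and 4.22 to 7.07 in BT474m1. TPI1, which interconverts the 3-carbon products, was 5112 to 9330 in SKBR-3 and 4251 to 7318 in BT474m1, lowest with both drugs and with lapatinib, respectively.

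GAPDH, which oxidizes glyceraldehyde 3-phosphate and is often used as a reference gene, was far from constant. It was 108013 (DMSO), 68626 (lapatinib), 235992 (JQ1) and 82243 (both drugs) in SKBR-3, and 42067 (DMSO), 21355 (lapatinib), 55290.3 (JQ1) and 26205 (both drugs) in BT474m1. In each line JQ1 was the highest library and lapatinib the lowest. The log2 fold change with JQ1 was 1.13 (1.12 to 1.14) in SKBR-3 and 0.39 (0.38 to 0.41) in BT474m1, and that with lapatinib was -0.65 (-0.67 to -0.64) and -0.98 (-1.0 to -0.96). The call with JQ1 in SKBR-3 was lost at 0.98 with libraries scaled to equal totals. Reads of GAPDH are hard to assign because the genome holds many processed copies of it.

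Other abundant genes were also higher in that library. Of the 148 genes with a mean of 10000 or more, 12.8% were raised with JQ1 in SKBR-3 against 3.75% of all genes. With both drugs in SKBR-3, 22.3% of them were raised against 10.8% of all genes, while ALDOA and GAPDH lay below DMSO. The keratin gene KRT8, chosen after its values were seen, was 59145 with DMSO and 211202 with JQ1. The part of this in the values of ALDOA and GAPDH was not tested.

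Further on the way to pyruvate, PGK1, PGAM1, ENO1 and PKM2 were also lower with lapatinib in both lines. PGK1, which makes ATP, was 10865 (DMSO), 7148 (lapatinib), 10219.7 (JQ1) and 5740.3 (both drugs) in SKBR-3, and 10072, 7061, 10497 and 7321 in BT474m1. PGAM1, the mutase after it, was 4064, 2299, 3593 and 1738 in SKBR-3, and 3124, 1788, 3169 and 1716 in BT474m1. Both were higher in the 2 libraries of a line without lapatinib than in the 2 with it. The combination lowered PGAM1 in SKBR-3, at a log2 fold change of -1.23 (-1.29 to -1.16), and in BT474m1 the value was -0.86 (-0.93 to -0.80). PGAM4, a near-identical copy of PGAM1, was listed at 526 to 1228, so that the reads of the 2 genes may be mixed.

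ENO1, the main enolase, was 37062 (DMSO), 21827 (lapatinib), 38488 (JQ1) and 16797 (both drugs) in SKBR-3, and 11049 (DMSO), 7525 (lapatinib), 10218 (JQ1) and 7795 (both drugs) in BT474m1. The combination lowered it in SKBR-3, at -1.14 (-1.16 to -1.12), a call that ended just short of 2-fold when scaled by the median of ratios, beside -0.50 (-0.53 to -0.47) in BT474m1. PKM2, pyruvate kinase, was 21895, 11691, 35377 and 12706 in SKBR-3, and 30364, 16643, 34260.4 and 15483 in BT474m1. It was called in none of the 6 comparisons with DMSO, and came nearest with both drugs in BT474m1 at -0.97 (-0.99 to -0.95).

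ENO2, the neuronal enolase, could be measured in BT474m1. There it was 72.6 (DMSO), 111 (lapatinib), 211 (JQ1) and 245 (both drugs), higher in each treated library. On the log2 scale the change was 0.61 (0.30 to 0.94), 1.52 (1.27 to 1.81) and 1.74 (1.49 to 2.03). In SKBR-3 it was 2.06 to 2.58, which is 3 or 4 reads in each library. ENO3, a scarce enolase outside the set, was 35.1 (DMSO), 46.7 (lapatinib), 11.0 (JQ1) and 8.9 (both drugs) in SKBR-3. Its BT474m1 values were 12.7, 47.6, 1.9 and 7.6.

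Lactate dehydrogenase was lower with lapatinib for both subunits in both lines. LDHA, the subunit favored in lactate production, was 30835 (DMSO), 15309 (lapatinib), 47357 (JQ1) and 14244 (both drugs) in SKBR-3, and 9954, 6299, 8767 and 6239 in BT474m1. LDHB, the subunit of oxidative tissue, was 6653, 2952, 5858 and 2501 in SKBR-3, and 1259, 742, 1369 and 782 in BT474m1. For each subunit and line the 2 libraries with lapatinib were the lowest. In SKBR-3 the log2 fold change with lapatinib was -1.01 (-1.03 to -0.99) for LDHA and -1.17 (-1.23 to -1.12) for LDHB, and with both drugs -1.11 (-1.14 to -1.09) and -1.41 (-1.47 to -1.36). The LDHA call with both drugs was lost, at -0.97, when scaled by the median of ratios. In BT474m1 these 4 values lay between -0.76 and -0.66 and none was called.

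The lactate carriers SLC16A1 (MCT1, which works in both directions) and SLC16A3 (MCT4, the exporter of glycolytic cells) behaved differently. SLC16A1 was scarce, at 47.2 (DMSO), 16.9 (lapatinib), 50.9 (JQ1) and 23.4 (both drugs) in SKBR-3, and 28.3, 10.8, 76.8 and 21.0 in BT474m1. Lapatinib was the lowest library in each line and JQ1 the highest. The log2 fold change with lapatinib was -1.43 (-2.25 to -0.77) in SKBR-3 and -1.31 (-2.23 to -0.60) in BT474m1, where it rests on 18 reads and was -0.88 with a pseudocount of 10. With JQ1 it was 0.11 (-0.38 to 0.60) in SKBR-3 and 1.41 (1.0 to 1.89) in BT474m1, and the level with both drugs was 2.13-fold and 3.54-fold below that with JQ1 alone, in the same order.

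SLC16A3 was 1804 (DMSO), 1668 (lapatinib), 6153 (JQ1) and 2499 (both drugs) in SKBR-3. In BT474m1 it was 136, 129.5, 72.5 and 105. JQ1 was thus the highest library in SKBR-3 and the lowest in BT474m1, with log2 fold changes of 1.77 (1.71 to 1.83) and -0.90 (-1.20 to -0.62). With both drugs the values came back toward DMSO in each line, at 0.47 (0.40 to 0.54) and -0.37 (-0.65 to -0.10).

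**Figure D3:**
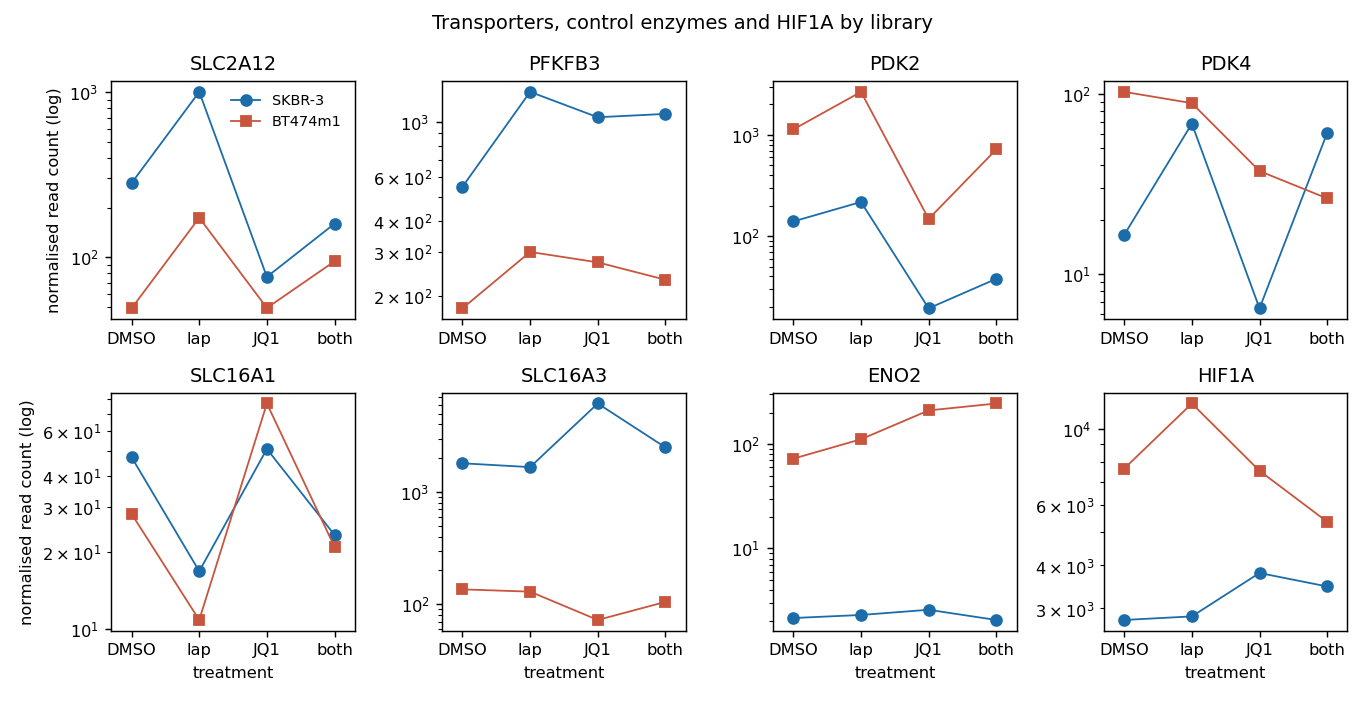
Normalised read counts (log axes, a separate scale for each gene) of 8 genes of transport and control in the 4 libraries of SKBR-3 (blue circles) and BT474m1 (red squares), where lap is lapatinib and both is lapatinib with JQ1. PDK2 is lowest with JQ1 in both lines, SLC16A3 is highest with JQ1 in SKBR-3 and lowest with JQ1 in BT474m1, and PDK4 with both drugs is above DMSO in SKBR-3 and below it in BT474m1.

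The PDK kinases inhibit pyruvate dehydrogenase, and PDK2 with JQ1 had the largest changes of the 31 genes in the 6 comparisons with DMSO. PDK2, the widely expressed form, was 139.6 (DMSO), 217 (lapatinib), 19.3 (JQ1) and 37.8 (both drugs) in SKBR-3. The BT474m1 values were 1133, 2664, 148 and 719. The order of the 4 treatments was the same in both lines: highest with lapatinib, then DMSO, then both drugs, and lowest with JQ1.

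JQ1 lowered PDK2 6.92-fold in SKBR-3 and 7.62-fold in BT474m1, at log2 fold changes of -2.79 (-3.46 to -2.29) and -2.93 (-3.12 to -2.77). With lapatinib the value was 0.64 (0.37 to 0.91) in SKBR-3 and 1.23 (1.16 to 1.31) in BT474m1. The combination gave -1.86 (-2.34 to -1.44) in SKBR-3 and -0.66 (-0.76 to -0.56) in BT474m1. Among the 31 genes, JQ1 lowered SLC2A3, PDK2 and PDK4 in both lines and raised 0 in both, where 5.31% of all genes were lowered in both and 1.16% raised in both. In BT474m1 the SLC2A3 value rests on 6 reads with DMSO and 1 with JQ1. With a pseudocount of 10, PDK2 was the 1 gene lowered by JQ1 in both lines.

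PDK4, the form that responds to fasting and fatty acids, was 16.5 (DMSO), 68.1 (lapatinib), 6.44 (JQ1) and 60.5 (both drugs) in SKBR-3. For BT474m1 the values were 102, 88.6, 37.2 and 26.2. The 2 libraries with lapatinib were the highest in SKBR-3, and the 2 with JQ1 were the lowest in BT474m1. In SKBR-3 the log2 fold change was 1.99 (1.37 to 2.78) with lapatinib, -1.23 (-2.59 to -0.23) with JQ1 and 1.82 (1.2 to 2.61) with both drugs, from 23, 89, 10 and 88 reads. The call with JQ1 was lost, at -0.69, with a pseudocount of 10. In BT474m1 it was -0.21 (-0.52 to 0.10), -1.44 (-1.85 to -1.08) and -1.92 (-2.46 to -1.49).

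PDK1, known as a HIF-1 target, was 584 (DMSO), 323 (lapatinib), 484 (JQ1) and 214 (both drugs) in SKBR-3, and 566, 408, 572 and 383 in BT474m1. It was lowered with both drugs in SKBR-3, at -1.44 (-1.64 to -1.26), and lay at -0.56 (-0.70 to -0.42) in BT474m1. PDK3 was 190.4 (DMSO), 93.4 (lapatinib), 247 (JQ1) and 155 (both drugs) in SKBR-3, and 562, 367, 746 and 578 in BT474m1. For both genes lapatinib alone was below DMSO, and the combination below JQ1 alone, in each line. The call of PDK3 with lapatinib in SKBR-3 was -1.02 (-1.35 to -0.71), just past the threshold, and -0.95 with a pseudocount of 10. PDP1, the phosphatase that opposes the kinases, was 63.3 to 75.9 in SKBR-3 and 428 to 676 in BT474m1 and was called in no drug comparison.

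HIF1A, the oxygen-regulated subunit of HIF-1, is controlled mainly at the protein level, which was not measured here. Its RNA was 2778 (DMSO), 2845 (lapatinib), 3804 (JQ1) and 3477 (both drugs) in SKBR-3. The BT474m1 values were 7652, 11828, 7539 and 5361, highest with lapatinib and lowest with both drugs. On the log2 scale the change between both drugs and lapatinib was -1.14 (-1.18 to -1.11) in BT474m1 and 0.29 (0.23 to 0.35) in SKBR-3. None of the 6 comparisons with DMSO passed 2-fold.

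The effect of both drugs was also set beside the sum of the effects of each drug alone, on the log2 scale, as a description since all 3 terms share the DMSO library. In SKBR-3, 2 of the 31 genes lay at least 2-fold above the sum (SLC2A3 and PDK4), against 3.9% of all genes, and 3 lay below it (PFKFB3, ALDOA and SLC16A3), against 7.58%. In BT474m1, SLC2A3 and PDK2 lay above (4.72%) and HIF1A below (4.73%). With a pseudocount of 10, 0 genes lay above the sum in either line, and SLC2A3 in BT474m1 had at most 6 reads in a library. PDK2 with both drugs in BT474m1 was 1.04 above its sum, and in SKBR-3 0.30 above. ALDOA in SKBR-3 was 1.01 below, just past the threshold, SLC16A3 1.19 below and PFKFB3 1.22 below. The ALDOA call passed by less than the scalings moved the SKBR-3 comparisons with DMSO, which was by -0.15 to 0.14. For ALDOA and SLC16A3 the high value with JQ1 alone was not seen when lapatinib was added.

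Without drug, the 2 lines differed in most of the set. In DMSO, 14 of the 31 genes were at least 2-fold lower in BT474m1 than in SKBR-3, where 15.6% of all genes were, and 7 were higher (PFKFB4, ENO2, PDK2, PDK3, PDK4, PDP1 and HIF1A), where 26.8% were. The PFKFB4 call was lost, from 1.09 to 0.94, when scaled by the median of ratios. All 3 glucose carriers of the set were among the lower, with SLC2A1 6.71-fold lower at a log2 fold change of -2.75 (-2.81 to -2.69), whereas SLC2A10, outside the set, was 14.8-fold higher in BT474m1 at 3.89 (3.72 to 4.09). ALDOC was 76.4-fold lower (from 860 to 15 reads) and SLC16A3 13.2-fold lower. In the other direction, PDK2 was 8.07-fold higher in BT474m1, with a log2 fold change of 3.01 (2.81 to 3.24), and PDK4 was 5.92-fold higher at 2.56 (2.01 to 3.32). ENO2 was higher by 4.55 (3.51 to 7.37), from 3 reads in SKBR-3. Thus 4 of the 5 genes that act on pyruvate dehydrogenase were higher in BT474m1, and PDK1 was not, at -0.05 (-0.18 to 0.08). The 32 genes together took 1.99% of the summed values in SKBR-3 with DMSO and 1.03% in BT474m1 with DMSO. With lapatinib these shares were 1.29% and 0.71%, with JQ1 2.97% and 1.11%, and with both drugs 1.28% and 0.70%. Much of the height with JQ1 was GAPDH: without it the share was 1.30% with DMSO and 1.63% with JQ1 in SKBR-3, and 0.77% with each in BT474m1. With lapatinib the shares without GAPDH were 0.87% and 0.57%, and with both drugs 0.79% and 0.54%.

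Levels of alternative forms of a step were compared per length, dividing each value by the longest annotated transcript. Only forms within the set enter these shares. On this scale HK1, ALDOA, ENO1 and LDHA made up most of the listed forms of their step in all 8 libraries. SLC2A1 led the 3 listed carriers, which leave out SLC2A10. The share of HK2 in the 2 hexokinases was 14.6% to 28.1% in SKBR-3, highest with lapatinib, and 15.3% to 27.4% in BT474m1, highest with both drugs. LDHA made up 76.1% to 85.4% of lactate dehydrogenase. Among the 3 PFKFB forms, PFKFB2 led in SKBR-3 with DMSO (54.8%) and PFKFB3 led there with lapatinib (64.4%), JQ1 (51.8%) and both drugs (64.7%). In BT474m1 no form passed 45.7%. Not divided by length, PFKFB2 led in SKBR-3 with JQ1 too, and in all 4 BT474m1 libraries.

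Among the 2 lactate carriers, SLC16A3 held 97.2% to 99.1% in SKBR-3. In BT474m1 the share of SLC16A1 was 18.7% (DMSO), 8.46% (lapatinib), 53.9% (JQ1) and 18.1% (both drugs), so that JQ1 had by far the highest share. With the length of the Ensembl canonical transcript, 2599 bases instead of 4830 for SLC16A3, the share with JQ1 was 42.3%. The share of PFKL among the 3 phosphofructokinase subunits in SKBR-3 was 36.8% with DMSO and 67.2% with both drugs, or 50.0% and 78.0% with the canonical length. The PDK genes are not set side by side in this way, because the longest transcript of PDK3 has 12720 bases and the canonical one 1741.

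**Figure D4:**
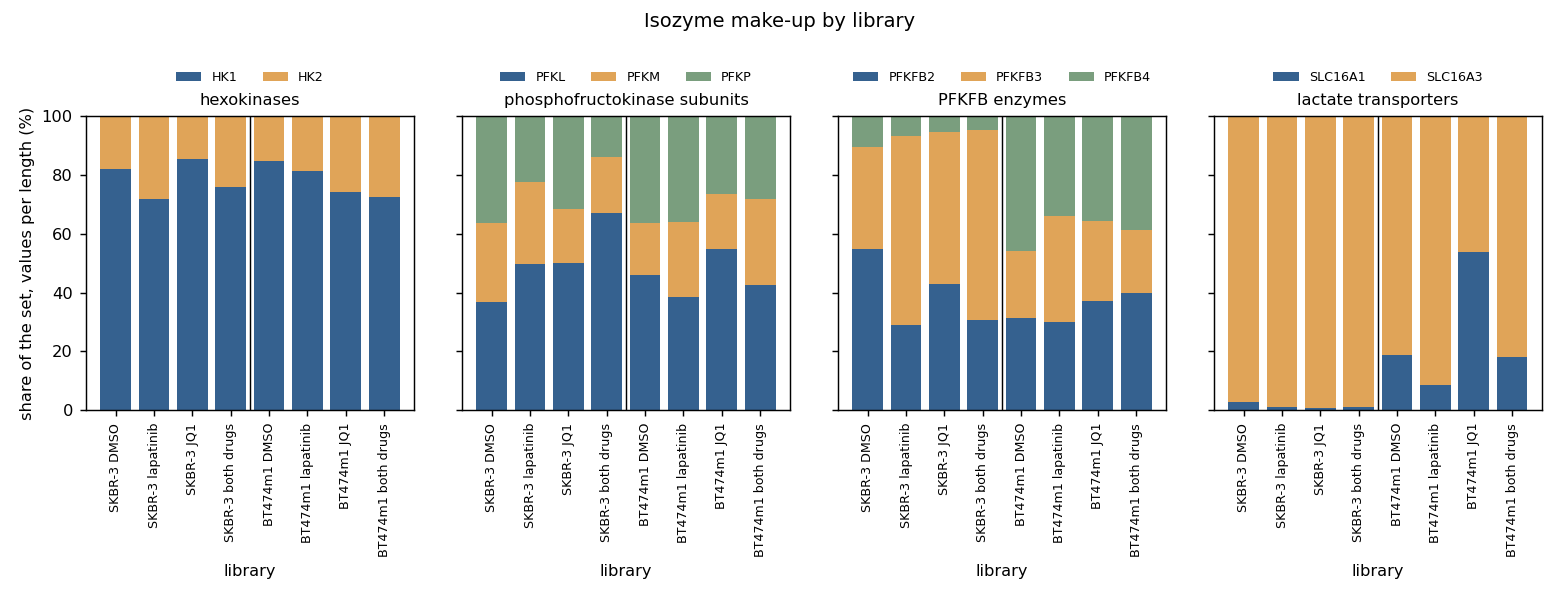
Share (%) of each form among the listed forms of 4 steps, from values divided by the longest transcript, in the 8 libraries (bars, SKBR-3 left of the line in each panel and BT474m1 right of it). PFKFB3 takes 64.4% and 64.7% of the PFKFB total in the SKBR-3 libraries with lapatinib, and SLC16A1 takes 53.9% of the lactate carriers in BT474m1 with JQ1.

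Of 83 other genes of glucose and pyruvate handling, listed by pathway, 74 passed the filter. With lapatinib, 10 were raised and 4 lowered in SKBR-3 (11.1% and 9.44% of all genes), and 13 and 7 in BT474m1 (14.0% and 8.06%). With JQ1 the counts were 7 and 5 in SKBR-3 (3.75% and 11.8%) and 4 and 3 in BT474m1 (4.81% and 11.8%). With both drugs they were 11 and 11 in SKBR-3 (10.8% and 20.8%) and 17 and 11 in BT474m1 (14.2% and 15.3%). The median log2 fold change of the 74 with lapatinib was 0.07 in SKBR-3 and -0.04 in BT474m1, beside 0.05 and 0.07 over all genes. For 11 other glycolytic enzymes and isozymes, of which 6 were kept, it was 0.62 and 1.14. Lapatinib raised 2 of these 6 in SKBR-3 (PFKFB1 and PGAM2), 3 in BT474m1 (GAPDHS, PGAM2 and ENO3) and lowered 0 (same shares of all genes). PFKFB1 was at most 18.4 and GAPDHS at most 26.1 in any library. Among the 74, 9 carry pyruvate into the mitochondrion, build pyruvate dehydrogenase or belong to its phosphatases. Lapatinib changed 0 of these 9 by 2-fold in SKBR-3 and raised 1 in BT474m1. The 1 raised was PDPR, a regulatory subunit of the phosphatase, at 592.7 with DMSO and 1303.5 with lapatinib. Of 13 further known HIF targets, 2 were raised and 1 lowered with lapatinib in SKBR-3 and 3 and 0 in BT474m1, which is to be read against the same shares of all genes. Their medians were 0.17 and 0.69, beside 0.05 and 0.07 over all genes. With JQ1, 4 of the 13 were raised and 0 lowered in SKBR-3 (3.75% and 11.8% of all genes) and 1 and 0 in BT474m1 (4.81% and 11.8%). With both drugs, 5 were raised and 0 lowered in SKBR-3 (10.8% and 20.8%) and 6 and 1 in BT474m1 (14.2% and 15.3%).

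Of these lists, 8 genes were called alike in SKBR-3 and BT474m1 with at least 100 units in 1 library of each comparison, which is 10.8% of the 74 beside 9.22% of all genes. By treatment, lapatinib raised 2 and lowered 2 of them in both lines (1.51% and 2.86% of all genes), and both drugs raised 5 and lowered 2 (2.19% and 4.97%), while JQ1 raised 0 and lowered 0 (0.506% and 1.55%). TXNIP, which restrains glucose uptake, was 1555 (DMSO), 10881 (lapatinib), 5896 (JQ1) and 25780.2 (both drugs) in SKBR-3, and 4059.9, 14456, 7119 and 20571 in BT474m1. It rose with lapatinib by log2 fold changes of 2.81 and 1.83 and with both drugs by 4.05 and 2.34. MXI1, an antagonist of MYC, was raised by 1.49 (SKBR-3) and 2.19 (BT474m1) under lapatinib and by 2.55 and 2.16 under the combination. PC, pyruvate carboxylase, was lowered with lapatinib, at -1.37 and -2.90.

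EGLN3, a prolyl hydroxylase that marks HIF1A for destruction, was lowered at -1.19 (SKBR-3) and -1.06 (BT474m1) under lapatinib and at -1.72 and -1.24 under the combination. DLAT, the E2 subunit of pyruvate dehydrogenase, was lowered with both drugs at -1.87 and -1.16. The genes raised with both drugs in both lines also included SLC2A13, the carrier of myo-inositol (2.17 and 1.24), LDHD, the dehydrogenase of D-lactate (1.44 and 1.19), and KDM3A, a histone demethylase and HIF target (1.43 and 1.23).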

How the data were processed

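The deposited signal for each gene is an RSEM estimate of its reads, which the authors scaled to an upper quartile of 1000 over the genes above 0 of a library. The deposited tables, 1 per library, list 20531 genes. The submitters' processing notes name hg19, Picard 1.88, SAMtools 1.2, RSEM, DESeq, R 3.2.2 and DESeq2 1.12.3, whereas the study's methods text names another assembly, aligner and counter, so that it is uncertain which of these apply. The labels name a stranded and another library kit. No coordinates of the reads are therefore given, and the promoter windows come from RefSeq on GRCh38.p14.

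Values were handled with pandas 2.3.3 and numpy 2.4.6 under Python 3.11.15, intervals with scipy 1.17.1 and plots with matplotlib 3.10.9. Groups were taken from the labels, with 1 library in each of the 8, and no p-value was computed. The filter kept the 14429 genes that reached 10 in any library and removed 6102. The log2 fold change used a pseudocount of 1 and understates changes of low genes. Values of scarce genes lie on steps of 1 read, whose size was taken for each library, and 83.6% to 85.1% of the values above 0 came out whole within 0.02 reads. Depth was 21420121 to 34112369 reads on genes. The 95% intervals are exact Clopper-Pearson intervals of the read counts, and the floor was 3 reads (1.41 to 2.30 units). Amplified reads that carry no molecular identifier are not independent, so that intervals and floors cover counting error only.

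The genes described and the lists of other pathway genes were chosen with earlier results of these data known. Those called 2-fold changed in any drug comparison with DMSO are given library by library, and the other pathway genes are named where SKBR-3 and BT474m1 were called alike and each reached 100. SLC2A6, SLC2A10, PGAM2, ENO3, PFKFB1, GAPDHS and PDPR were named outside that rule, after their values were seen. Transcript lengths come from GENCODE, matched by symbol. The alternatives were scaling to equal totals or by the median of ratios, a pseudocount of 10, a filter of 100 or none, values not divided by length and, chosen after seeing the data, canonical transcript lengths. The steps were checked on simulated data.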

Additional observations from a re-analysis of the deposited data

Results flagged for a closer look

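Some genes moved in opposite directions in SKBR-3 and BT474m1 under the same comparison, with the interval of counting error away from 0 in each line. Of 32 such cases over 5 comparisons, the 6 with a 2-fold change in at least 1 line are given below. The other 26 differed between the lines by 0.15 to 1.74, the widest being SLC2A12 (-0.81 and 0.93) and PFKFB2 (-0.77 and 0.82) with both drugs against DMSO. With 1 library a group, the difference between the lines was not tested. The values below are the log2 fold change in SKBR-3 minus that in BT474m1.

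For SLC16A3, the lactate exporter, the difference was 2.67 with JQ1 against DMSO (1.77 and -0.90) and -1.83 for both drugs against JQ1 (-1.30 and 0.53). The level of SLC16A3 with DMSO was itself 13.2-fold lower in BT474m1.

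For PDK4, a kinase of pyruvate dehydrogenase, it was 3.74 with both drugs against DMSO (1.82 and -1.92). PDK4 rests on 23 reads with DMSO and 88 with both drugs in SKBR-3, and on 217 and 45 in BT474m1.

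For PFKM, a phosphofructokinase subunit, it was -1.69 with both drugs against DMSO (-1.33 and 0.36), and for PFKFB4 in the same comparison it was -1.34 (-1.11 and 0.23).

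For HIF1A it was 1.43 for both drugs against lapatinib (0.29 and -1.14).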

How the results depend on the processing

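With the pseudocount of 10, 0 genes were lowered by lapatinib in BT474m1, 1 was higher with both drugs than with JQ1 in SKBR-3, 1 in BT474m1 was higher under the combination than under lapatinib, and 0 lay above the sum in each line. Of the genes lowered in both lines, 0 were then left with lapatinib and 1 with JQ1. With the filter of 100, 0 were lowered by lapatinib in BT474m1, 1 was raised by JQ1 in BT474m1, 1 in BT474m1 was higher under the combination than under lapatinib, 1 lay above the sum in each line and 0 were lowered by lapatinib in both lines, since scarce genes such as SLC2A3 and SLC16A1 are then not counted. With scaling by the median of ratios, 2 were raised by both drugs in SKBR-3, the second being PFKFB3 at 1.11. The other counts of the 31 genes called in a comparison, in both lines or off the sum stayed within 1.5 times their value. Of the 12 counts of other pathway genes against DMSO, 4 fell by more than that with the pseudocount of 10 and 2 with the filter of 100, all of lowered genes. These counts and those in both lines were recomputed after seeing the data.

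Over the 6 drug comparisons with DMSO, the pseudocount and the scalings ended 10 calls and made 5. Those ended were of SLC2A3 and PDK3 (-0.95) with lapatinib and of GAPDH and PDK4 (-0.69) with JQ1 in SKBR-3. PFKFB4, ENO1 and LDHA with both drugs in SKBR-3 (-0.97, just short of 2-fold, and -0.97) and SLC2A3 and SLC16A1 in BT474m1 also lost a call. Those made were of PFKFB3 with JQ1 (1.01) and with both drugs (1.11), PGK1 (-1.01) and SLC16A1 (-1.07) with both drugs in SKBR-3, and GAPDH with lapatinib in BT474m1 (-1.03). For the other comparisons, a call was lost by PFKP against lapatinib and by SLC2A12 (0.98), PGAM1 (-0.99) and SLC16A1 (-0.87) against JQ1 with both drugs in SKBR-3, by SLC2A3 against lapatinib with both drugs in BT474m1 (0.16) and by PFKFB4 between the lines in DMSO (0.94). The scalings moved all genes of a comparison with DMSO by -0.15 to 0.14 within a line. With 1 library a group, none could be left out, and a model that takes the 2 lines, or the libraries with and without JQ1, as pairs for lapatinib was not run. Depth limits CA9, SLC2A3, ENO2 in SKBR-3 and ALDOC in BT474m1, which had 15 reads or fewer in most libraries.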
